A study of Ursus arctos with 12 samples.

Results

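The enzymes that make serine and carry its carbon through the folate cycle were examined in the muscle of active and hibernating brown bears. The set held 10 genes chosen by symbol: the serine synthesis enzymes PHGDH, PSAT1 and PSPH, the serine hydroxymethyltransferases SHMT1 and SHMT2, the folate enzymes MTHFD1, MTHFD2, MTHFD1L and MTHFD2L, and the nuclear regulator QRICH1. Of the 30249 genes counted in the series, 9 matched by symbol and all 9 had enough reads to be tested among 17290 genes. MTHFD1 was present only under its NCBI gene ID, as LOC113246307, and was listed at 0 reads in all 12 libraries. For a library counted at 0, the 95% upper limit of the expected count is about 3 reads. A row at 0 throughout does not show that the muscle lacks the transcript, so no value of MTHFD1 is compared.

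The libraries came from the vastus lateralis, a thigh muscle, of 6 free-ranging brown bears (Ursus arctos) aged 2 to 3 years. Each bear was biopsied under anesthesia once in winter, during hibernation, and once in summer, during the active period, so that season is the only difference the labels give between the groups and both groups hold untreated wild animals. The libraries held 16742406 to 32140160 reads on genes. The winter library of bear 1509 stood apart from the other winter libraries on the second principal component, and results are given without it where it mattered. Transcripts of the muscle fibre were abundant in every library, where 13 fibre markers summed to 134312 to 207795 CPM (reads per 1000000 reads of the TMM-scaled library) in summer and 127236 to 173996 CPM in winter.

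Serine is built from the glycolytic intermediate 3-phosphoglycerate by PHGDH, PSAT1 and PSPH acting in turn. SHMT1 in the cytosol and SHMT2 in mitochondria then split serine into glycine and a carbon unit held on tetrahydrofolate. In mitochondria, MTHFD2 or its paralogue MTHFD2L oxidizes this unit and MTHFD1L releases it as formate, which MTHFD1 takes up again in the cytosol for the synthesis of purines, thymidylate and methionine. ATF4, the transcription factor of the integrated stress response, is a known activator of several of these genes, and QRICH1 is known as a regulator that acts with ATF4 when the endoplasmic reticulum is stressed. MTHFD2 is best known for its high level in embryonic and dividing cells and its low level in most adult tissues.

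In winter compared to summer, 4 of the 9 genes tested were lower (MTHFD2, PHGDH, MTHFD1L and PSAT1), 1 was higher (QRICH1) and 4 were not called (PSPH, SHMT1, SHMT2 and MTHFD2L), by edgeR's quasi-likelihood test at a Benjamini-Hochberg adjusted p below 0.05. Over all genes tested, 39.5% were called, 19.9% lower and 19.6% higher. In all 6 bears 19.0% of genes were lower and 18.4% higher. The median log2 fold change was −0.39 over the 9 genes and 0.00 over all genes. At an adjusted p below 0.01 with a fold change above 1.3 or below 0.77, which 24.0% of all genes passed, only MTHFD2 passed (1 of the 9). In a biopsy, fewer cells of a type and less RNA per cell cannot be told apart. The test compared the seasons without using the pairing of libraries by bear. With a replicate block by bear 3 of the 9 genes were lower and 1 higher. With library totals in place of TMM scaling 5 of the 9 genes were lower and 0 higher, and without bear 1305, 1316 or 1317 the number lower was 2. Without bear 1305 the number higher was 0.

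**Figure D1:**
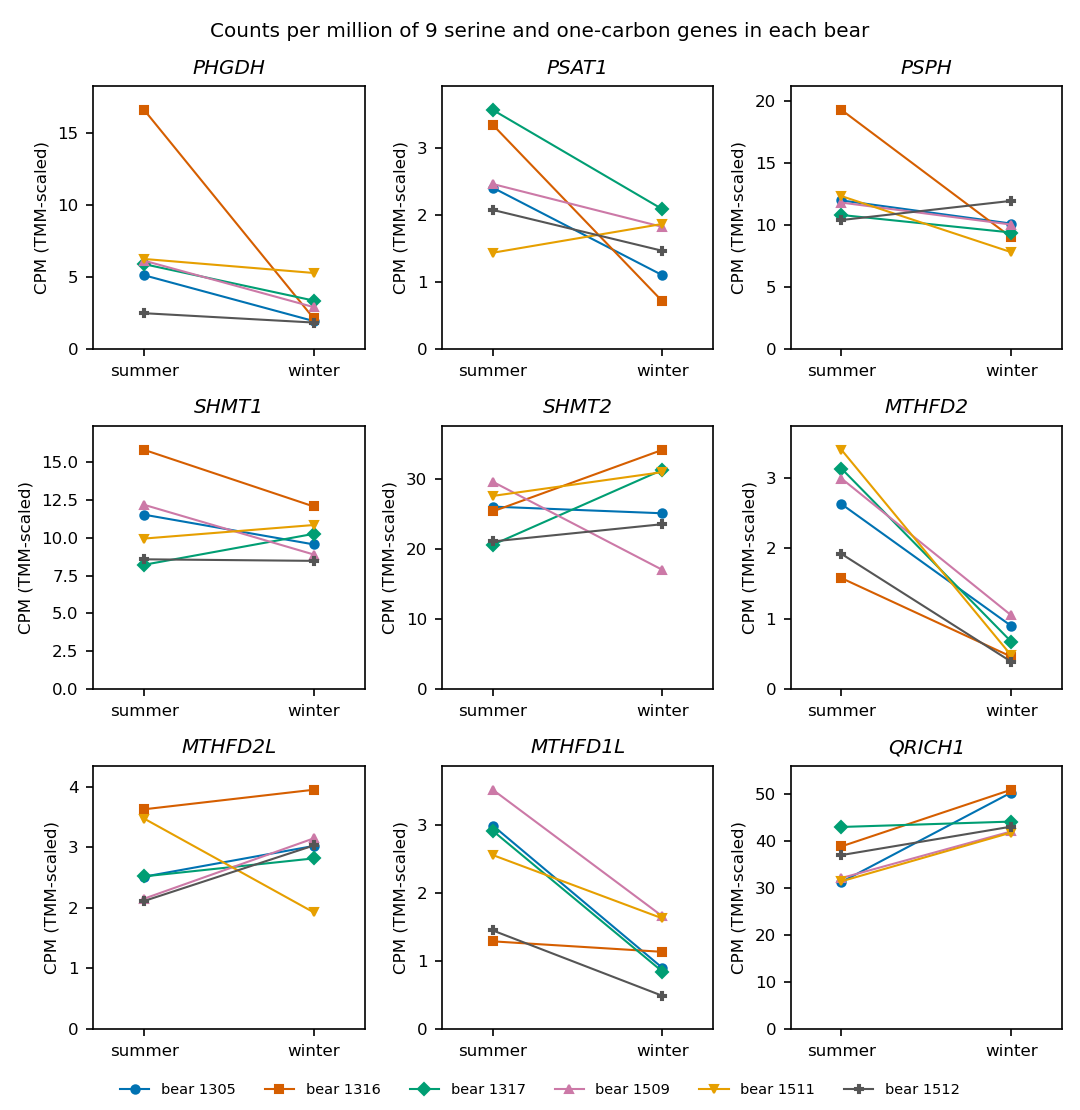
Level of each of the 9 tested genes in summer and winter, in CPM scaled by TMM with each axis starting at 0. Each line joins the 2 libraries of 1 bear. The MTHFD2 lines all descend to 0.391 to 1.05 CPM in winter, below every summer library, whereas the SHMT1 and SHMT2 lines cross.

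PHGDH, which catalyzes the committed step of serine synthesis, lay at 2.50, 6.03 and 16.6 CPM in the lowest, median and highest summer library and at 1.86, 2.53 and 5.29 CPM in winter. The highest value was the summer library of bear 1316, and the seasons overlapped, with 3 winter libraries below every summer library. PHGDH fell to 0.410 of its summer level, a log2 fold change of −1.29 (standard error, SE, 0.39, adjusted p = 0.0181), and was lower in 6 of 6 bears. Single bears ran from −2.90 in bear 1316 to −0.24 in bear 1511 on the log2 scale. When bear 1316 was left out, the fitted value was −0.76 and PHGDH was no longer called (adjusted p = 0.0877).

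PSAT1, the aminotransferase of the next step, was counted at 36 to 82 reads per library in summer and 17 to 45 in winter. Its level was 1.44, 2.43 and 3.56 CPM in the lowest, median and highest summer library and 0.714, 1.64 and 2.08 CPM in winter. It was lower in 5 of 6 bears, with bear 1511 the exception at 0.36 on the log2 scale. The log2 fold change of −0.76 (SE 0.28, adjusted p = 0.0455) lay close to the threshold. With a replicate block by bear, PSAT1 missed the threshold (adjusted p = 0.0603). It was also not called without bear 1305, 1316, 1317, 1509 or 1512, where the adjusted p lay between 0.0635 and 0.157, and without bear 1316 the log2 fold change was −0.52.

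PSPH, the phosphatase that releases serine, lay at 10.4, 11.9 and 19.3 CPM in the lowest, median and highest summer library and at 7.82, 9.72 and 11.95 CPM in winter. In winter 5 of 6 libraries lay below every summer library, and the exception was bear 1512. The log2 fold change of −0.39 (SE 0.16, adjusted p = 0.0652) was not called, with a 95% interval of −0.73 to −0.05 before adjustment. PSPH was called lower with library totals (adjusted p = 0.0284) and without bear 1512 (adjusted p = 0.0361). For PHGDH, PSAT1 and PSPH alike, the largest winter decrease was that of bear 1316, at −2.90, −2.10 and −1.09 on the log2 scale. The summer library of bear 1316 also stood apart in the summed level of 6 adipocyte markers (ADIPOQ, PLIN1, LEP, CIDEC, FABP4 and LPL). They summed to 1990 CPM there, against 627 to 932 CPM in the other summer libraries. LEP alone did not stand apart there and had at most 4 reads in any summer library. A link to the decreases of these enzymes was not tested.

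**Figure D2:**
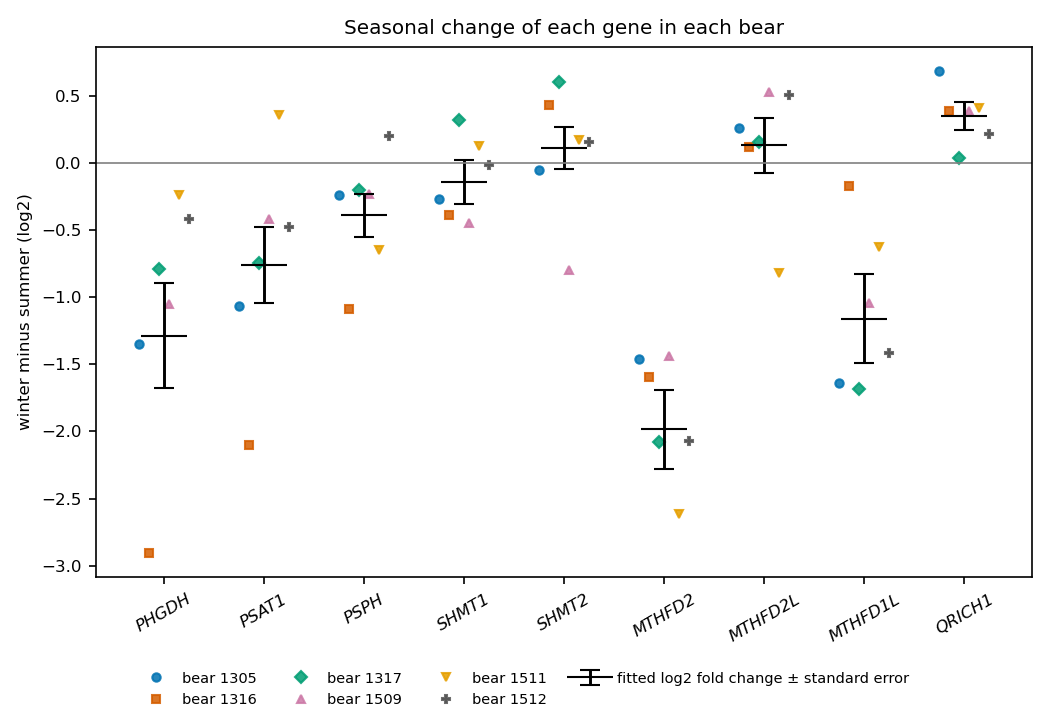
Winter minus summer difference in log2 CPM of each gene in each of the 6 bears (colored symbols), with the fitted log2 fold change and its standard error (black). MTHFD2 lies between −2.61 and −1.44 in every bear, and bear 1316 is lowest for PHGDH, PSAT1 and PSPH but highest for MTHFD1L at −0.17.

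Of the pair of hydroxymethyltransferases neither was called. SHMT1, the cytosolic enzyme, lay at 8.21, 10.7 and 15.8 CPM in the lowest, median and highest summer library and at 8.47, 9.90 and 12.1 CPM in winter. Its log2 fold change was −0.14 (SE 0.16, adjusted p = 0.517), with a 95% interval of −0.49 to 0.21 and 4 of 6 bears lower. SHMT2, the mitochondrial enzyme, lay at 20.6, 25.7 and 29.6 CPM in summer and at 17.0, 28.0 and 34.1 CPM in winter. Its log2 fold change was 0.11 (SE 0.16, adjusted p = 0.610), with a 95% interval of −0.23 to 0.45 and 4 of 6 bears higher. The lowest SHMT2 value of all was the winter library of bear 1509. Without that library the log2 fold change was 0.21 and SHMT2 was again not called (adjusted p = 0.211).

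MTHFD2, the mitochondrial dehydrogenase and cyclohydrolase, had the largest difference of the set. It lay at 1.57, 2.80 and 3.39 CPM in the lowest, median and highest summer library and at 0.391, 0.579 and 1.05 CPM in winter. Every winter library was below every summer library, which held for 8.21% of all genes. Counting both directions, the libraries of the seasons did not overlap for 17.3% of genes. MTHFD2 fell to 0.253 of its summer level, a log2 fold change of −1.98 (SE 0.29, adjusted p = 0.000174), and was lower in 6 of 6 bears, from −2.61 in bear 1511 to −1.44 in bear 1509. These levels rested on 33 to 85 reads per library in summer and 8 to 22 in winter. Under all 15 alternatives the log2 fold change lay between −2.16 and −1.82 and the adjusted p was at most 0.00163.

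MTHFD1L, the mitochondrial synthetase that releases formate, fell as well. Its level was 1.29, 2.73 and 3.51 CPM in the lowest, median and highest summer library and 0.488, 1.02 and 1.66 CPM in winter, with 27 to 82 and 15 to 30 reads per library. The seasons overlapped, with 4 winter libraries below every summer library. The log2 fold change was −1.16 (SE 0.33, adjusted p = 0.0127) and 6 of 6 bears were lower, from −1.69 in bear 1317 to −0.17 in bear 1316. Without bear 1305 or 1317 the adjusted p was 0.0569 and 0.0535.

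MTHFD2L, the paralogue of MTHFD2 with the same reactions, was not called. It lay at 2.11, 2.52 and 3.63 CPM in the lowest, median and highest summer library and at 1.93, 3.02 and 3.95 CPM in winter, and the seasons overlapped. The log2 fold change was 0.13 (SE 0.20, adjusted p = 0.637), with a 95% interval of −0.30 to 0.56. It was higher in 5 of 6 bears, the exception being bear 1511 at −0.82.

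The ratio of reads between paralogues was compared within each library, where no scaling between libraries enters. The ratio of MTHFD2 to MTHFD2L reads was 0.438, 1.01 and 1.38 in the lowest, median and highest summer library and 0.122, 0.255 and 0.339 in winter, so the seasons did not overlap. Its log2 value was lower in winter by a mean difference of −2.11 ± 0.37 (SD, n = 6 bears) and in 6 of 6 bears, with an exact two-sided sign-flip permutation p of 0.0313, the smallest that 6 bears allow. Adjusted over the 2 ratios tested, this exact permutation p was 0.0625. The ratio of SHMT2 to SHMT1 reads was 1.603, 2.44 and 2.77 in summer and 1.91, 2.80 and 3.04 in winter. Its log2 value differed by 0.20 ± 0.38 (SD, n = 6 bears), higher in 5 of 6 bears, and did not pass the exact permutation test (p = 0.281, adjusted p = 0.281). These ratios compare the seasons and not the enzymes, since longer transcripts collect more reads.

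**Figure D3:**
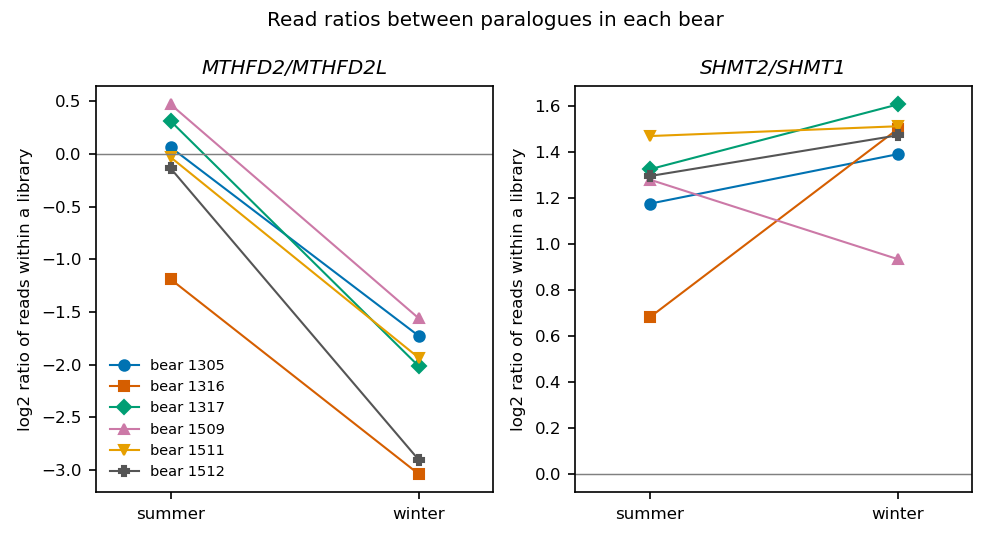
Log2 ratio of reads of MTHFD2 to MTHFD2L and of SHMT2 to SHMT1 within each library, with a line for each of the 6 bears and a grey line at equal reads. All 6 lines of MTHFD2/MTHFD2L descend, with differences of −2.76 to −1.79 on the log2 scale, while 5 of 6 lines of SHMT2/SHMT1 ascend, most in bear 1316 (0.82), and that of bear 1509 descends.

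QRICH1 was the only gene of the set called higher. It lay at 31.3, 34.5 and 42.9 CPM in the lowest, median and highest summer library and at 41.8, 43.6 and 50.9 CPM in winter. In winter 4 libraries lay above every summer library, and the summer library of bear 1317, the highest of its season, lay above 2 winter libraries. QRICH1 rose 1.27-fold, a log2 fold change of 0.35 (SE 0.10, adjusted p = 0.0165), in 6 of 6 bears, from 0.04 in bear 1317 to 0.68 in bear 1305. It was not called with library totals (log2 fold change 0.26, adjusted p = 0.0927) or without bear 1305 (log2 fold change 0.27, adjusted p = 0.0889).

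The bears did not rank alike across these genes. In summer bear 1316 had the highest level of PHGDH, PSPH, SHMT1 and MTHFD2L, and the lowest of MTHFD2 and MTHFD1L. Bears 1316 and 1512, with the lowest summer levels of MTHFD2 and MTHFD1L, also had the lowest summed level of 6 markers of dividing cells (MKI67, TOP2A, CCNB1, CDK1, BUB1 and RRM2) in summer, at 9.97 and 6.89 CPM against 17.3 to 42.9 CPM in the other bears. In winter bear 1509 had the highest level of MTHFD2 and MTHFD1L and the highest summed level of these markers, at 14.2 CPM against 1.86 to 3.80 CPM. The winter library of bear 1511 had MTHFD1L close to that of bear 1509, at 1.62 against 1.66 CPM, with a summed level of these markers of 2.35 CPM. Other marker lists shared parts of this ranking. Bears 1316 and 1512 were also lowest in summer for summed fibroblast (3200 and 3113 CPM) and macrophage and leukocyte markers (57.0 and 83.0 CPM). In no other list were these bears the lowest 2. In winter bear 1509 also had the highest summed endothelial, smooth muscle, red blood cell, and macrophage and leukocyte markers. Its summed fibre and satellite cell markers were the lowest. All 6 markers of dividing cells were lower in winter (6 of 6 tested), as were 4 of 6 fibroblast, 4 of 5 endothelial, 3 of 6 macrophage and leukocyte, 3 of 4 satellite cell, 2 of 6 adipocyte, 1 of 5 smooth muscle and 3 of 13 muscle fibre markers. Over all genes tested, 19.9% were lower and 19.6% higher. The counts of lower smooth muscle and fibre markers lay near the first of these shares. Of the adipocyte and of the fibre markers 1 each was higher, and the summed satellite cell markers were higher in winter in 4 of 6 bears.

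The summed fibroblast markers ran from 3113 to 7951 CPM in summer and from 234 to 1309 CPM in winter, and the endothelial markers from 577 to 916 CPM and from 381 to 449 CPM. For macrophage and leukocyte markers the ranges were 57.0 to 109 CPM and 40.7 to 69.9 CPM, for satellite cell markers 12.9 to 23.9 CPM and 5.96 to 27.3 CPM, for adipocyte markers 627 to 1990 CPM and 301 to 577 CPM, and for smooth muscle markers 474 to 597 CPM and 251 to 344 CPM. Of the markers counted, 0 were listed at 0 in all libraries, and 1 marker each of adipocytes, satellite cells, red blood cells and dividing cells was at 0 in some. The part of these cells in the lower MTHFD2, MTHFD1L, PHGDH and PSAT1 was not tested.

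Other genes of the pathway were taken from fixed lists by role, 80 tested genes in all. In winter 24 of them fell and 11 rose, where 19.9% and 19.6% of all genes were, and their median log2 fold change was −0.25. With library totals the number higher was 5, and it was 6 without bear 1305 and 6 without bear 1316.

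In the folate list, 6 of 20 genes were lower and 2 higher, against 19.9% and 19.6% of all genes. The number higher was 1 without bear 1305 or 1512, 0 without bear 1316 or 1511, 1 with a replicate block by bear, 1 without a filter and 0 with library totals. ALDH1L1, the cytosolic enzyme that burns formyl-tetrahydrofolate to carbon dioxide, lay at 335 to 614 CPM in summer and 81.6 to 135 CPM in winter, with no overlap, and fell by 2.07 on the log2 scale (SE 0.18, adjusted p = 5.84e-06). MTHFS, which returns 5-formyltetrahydrofolate to the cycle and was counted under its gene ID, fell from 2.74 to 5.27 CPM to 0.651 to 1.66 CPM, a log2 fold change of −2.05 (SE 0.24, adjusted p = 3.36e-05). Neither gene was higher in any bear. TYMS, the thymidylate synthase of DNA synthesis, had a log2 fold change of −1.27 (SE 0.34, adjusted p = 0.00947). FOLR2, a folate receptor of macrophages that was also counted under its gene ID, had one of −1.21 (SE 0.28, adjusted p = 0.00370). MTHFSD rose 1.22-fold (adjusted p = 0.0301) in 6 of 6 bears, but missed the threshold with a replicate block by bear (adjusted p = 0.0514), without bear 1305 (0.109), 1316 (0.102) or 1511 (0.0537), with library totals (0.206) or without a filter (0.0672).

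Of the 4 proteins of the glycine cleavage system, which breaks glycine down in mitochondria, 2 were lower, and 1 was without bear 1316 or without bear 1512. The share of all genes called lower was 19.9%. DLD, a subunit shared with pyruvate dehydrogenase, lay at 532 to 809 CPM in summer and 254 to 516 CPM in winter, a log2 fold change of −0.63 (SE 0.17, adjusted p = 0.00958). GCSH, the lipoyl carrier protein, had a log2 fold change of −0.55 (SE 0.16, adjusted p = 0.0154). In every bear both were lower. The call of GCSH was lost without bear 1316 (adjusted p = 0.0724) or 1512 (adjusted p = 0.0541).

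In the methionine cycle and transsulfuration list, 3 of 10 genes were lower and 2 higher, against 19.9% and 19.6% of all genes. The number higher was 1 with library totals or without bear 1305, 1316 or 1509. CTH, which makes cysteine from cystathionine, lay at 0.790 to 2.19 CPM in summer and 0.113 to 0.546 CPM in winter, a log2 fold change of −2.25 (SE 0.37, adjusted p = 0.000387), though on only 2 to 13 reads per winter library. GAMT, the methyltransferase that makes creatine, fell by 1.08 (log2 scale, SE 0.28, adjusted p = 0.00726), with all 6 bears lower. The S-adenosylhomocysteine hydrolase-like genes went opposite ways. AHCYL2 rose from 63.9 to 82.3 CPM in summer to 112 to 228 CPM in winter (log2 fold change 1.33, SE 0.15, adjusted p = 3.33e-05), in 6 of 6 bears and with no overlap. AHCYL1, an inhibitor of the IP3 receptor, fell by 0.69 (SE 0.17, adjusted p = 0.00614), in 5 of 6 bears. MAT2B, the regulatory subunit of methionine adenosyltransferase, rose 1.25-fold (adjusted p = 0.0213) but not with library totals (adjusted p = 0.134), nor without bear 1305 (0.0727), 1316 (0.0619) or 1509 (0.0520).

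In the list of serine and glycine use, breakdown and transport, 7 of 17 genes were lower and 2 higher. The shares of all genes were 19.9% and 19.6%. The number lower was 4 without bear 1305 and 4 without bear 1317. Leaving out bear 1305 gave 0 higher, as library totals did, and leaving out bear 1316 or 1512 gave 1. The neutral amino acid transporter SLC1A4, which carries serine, fell from 10.9 to 21.0 CPM to 5.31 to 7.69 CPM, with no overlap and in 6 of 6 bears (log2 fold change −1.20, SE 0.17, adjusted p = 0.000121). SLC1A5, the related glutamine transporter, fell by 0.77 (SE 0.23, adjusted p = 0.0152) in 5 of 6 bears, but not without bear 1316 (adjusted p = 0.0652), 1317 (0.0536) or 1509 (0.0502). GCAT, of threonine breakdown to glycine, had a log2 fold change of −2.09 (SE 0.29, adjusted p = 0.000121) and SDSL, a serine dehydratase-like enzyme, one of −2.01 (SE 0.56, adjusted p = 0.0115), on at most 8 and 6 reads per winter library. SDSL lost its call without bear 1305 (adjusted p = 0.0509). SFXN2, a sideroflexin of the inner mitochondrial membrane, rose 1.39-fold (adjusted p = 0.0200) in 6 of 6 bears. SPTLC1, a subunit of the serine palmitoyltransferase that starts sphingolipid synthesis, rose 1.29-fold (adjusted p = 0.0221) in 5 of 6. With library totals, neither was called (adjusted p = 0.0515 and 0.103), and without bear 1305 neither was called (0.0520 and 0.113). SPTLC1 was also not called without bear 1316 (0.0656) or 1512 (0.0725).

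ATF4 lay at 222, 253 and 382 CPM in the lowest, median and highest summer library and at 335, 408 and 494 CPM in winter. It rose 1.51-fold (log2 fold change 0.59, SE 0.14, adjusted p = 0.00476), in 6 of 6 bears, and was called in every alternative tried. ATF4 protein is controlled mainly at translation, which these counts do not measure. Its list held 12 eIF2 kinases, partners and feedback genes. Of these edgeR called 3 higher and 0 lower, where 19.6% and 19.9% of all genes were. At an unadjusted p below 0.05, 3 were higher and 2 lower. DESeq2 and limma voom each called 3 higher and 0 lower, whereas the replicate block by bear gave 3 and 1. Without bear 1509 the number lower was 1. The others were DDIT3, the stress-response factor CHOP, at 0.91 (SE 0.24, adjusted p = 0.00806) and CEBPG, a dimer partner of ATF4, at 0.64 (SE 0.20, adjusted p = 0.0210) on the log2 scale. CEBPG lost its call with library totals (adjusted p = 0.0527), nor without bear 1305 (0.0598), 1316 (0.0641), 1317 (0.0581) or 1512 (0.0900).

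Of 19 other genes known as ATF4 targets, 8 were lower and 2 higher, where 19.9% and 19.6% of all genes were. The median log2 fold change of the 19 was −0.44, against −0.002 over all genes. Without bear 1305 the number lower was 5. Besides CTH, the largest decreases were those of JDP2, a repressor of AP-1, at −1.40 (SE 0.22, adjusted p = 0.000304), PYCR1, of proline synthesis, at −1.34 (SE 0.37, adjusted p = 0.00999), and VLDLR, a lipoprotein receptor, at −1.24 (SE 0.14, adjusted p = 3.75e-05). Each was lower in 6 of 6 bears. STC2, a secreted glycoprotein, rose 3.36-fold (adjusted p = 0.000146) and TRIB3, a pseudokinase that dampens ATF4, 1.58-fold (adjusted p = 0.0101), both in 6 of 6 bears.

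**Figure D4:**
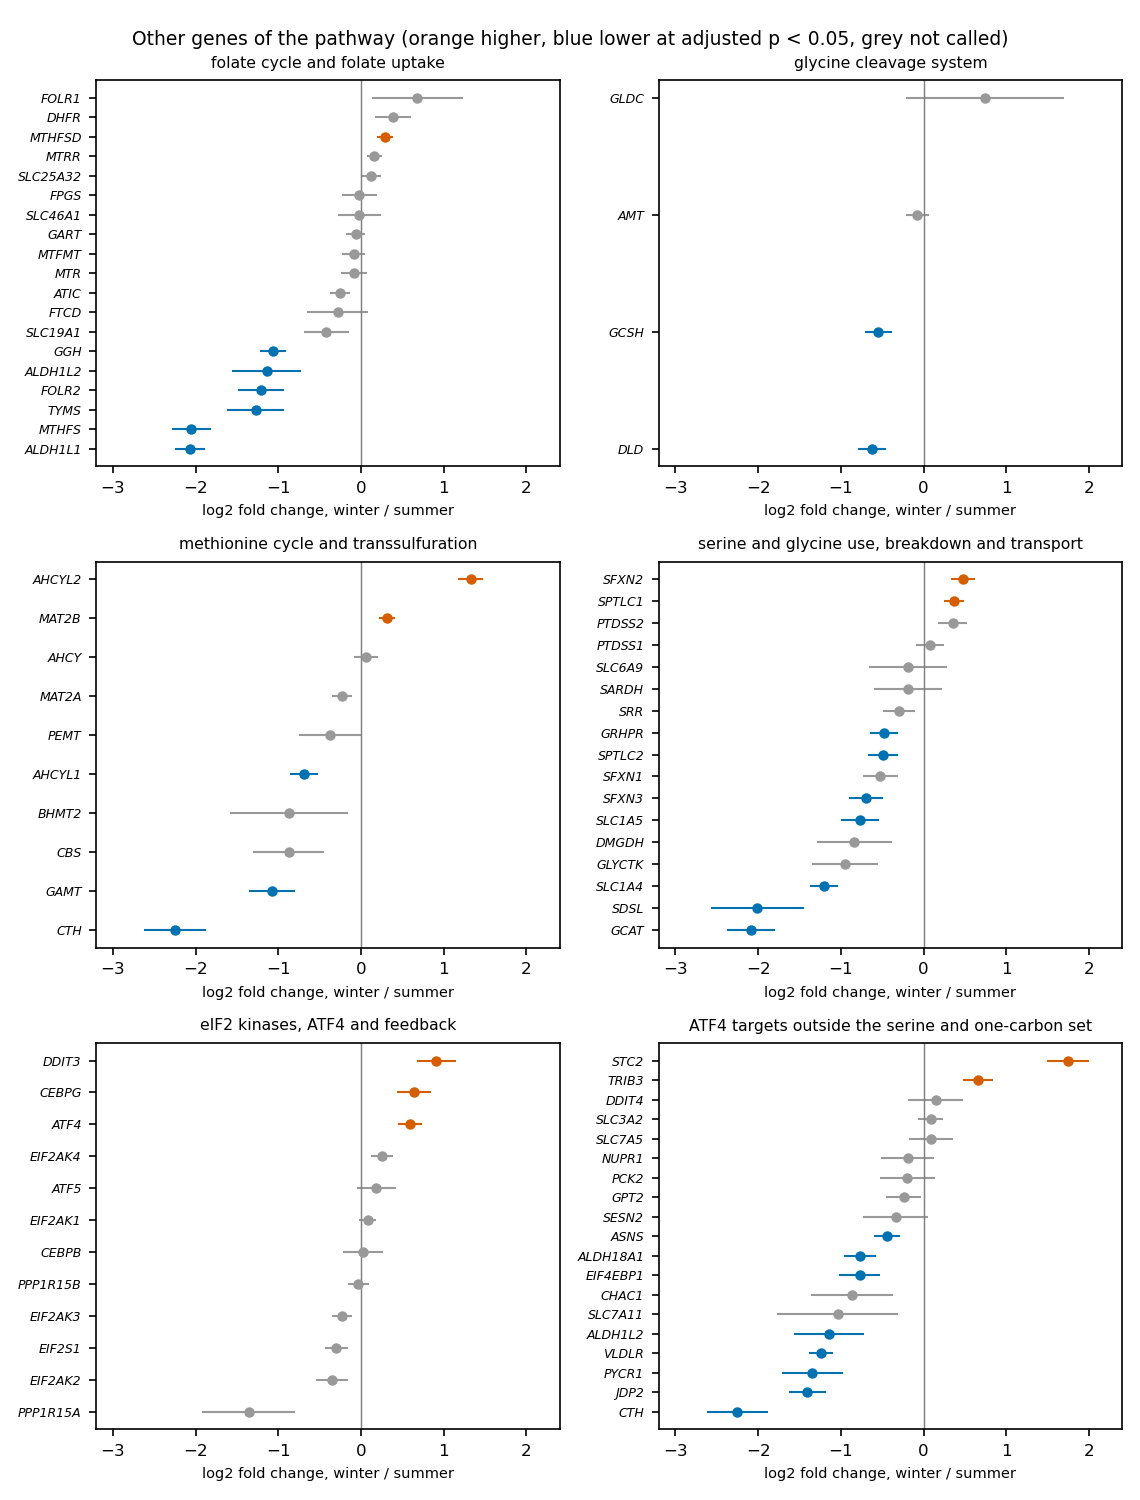
Fitted log2 fold change (winter over summer) and standard error of tested genes of the 6 other lists, from 12 libraries of 6 bears, with genes called higher in orange, lower in blue and not called in grey. CTH and ALDH1L2 stand in 2 lists. The folate list spans ALDH1L1 at −2.07 to FOLR1 at 0.68. ATF4 lies at 0.59 in the list of eIF2 kinases, and 8 genes are lower in the separate ATF4 target list.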

How the data were processed

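The authors aligned stranded single-end reads of 50 bases to the assembly ASM358476v1 with TopHat2 2.1.1 and counted reads per gene on the opposite strand with featureCounts 1.6.2, discarding alignments with more than 3 mismatches. The deposited values are raw counts, not normalized or filtered, and how reads with several matches were counted is not given in the sources used here. Lanes are not assigned to libraries in the labels, and their effect was not tested.

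A gene needed at least 30 reads summed over all 12 libraries. TMM-scaled counts entered a model of season alone (glmQLFit and glmQLFTest, edgeR 4.0.16 in R 4.3.3). Standard errors are the log2 fold change over the root of F. DESeq2 1.42.0 and limma 3.58.1 (voom) served as alternatives, beside the bear as a replicate block, RLE, library totals, other filters and each bear left out. Ratios used reads plus 0.5. The ratio of MTHFD1L to MTHFD1 was planned and could not be computed. Listed genes without a symbol row were matched by NCBI gene ID in a RefSeq table of UrsArc2.0.

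The same bears were sampled in both seasons, per the study's methods. Within a bear, the deviations of both libraries from their season mean had a correlation of 0.0903 to 0.344 (median 0.237). Between bears the correlation was −0.214 to 0.142 (median −0.0634), so the ranges overlapped. In simulated counts for 17046 genes in 6 bears and 2 seasons, edgeR found 70% of the 2-fold and 100% of the 4-fold changes, and made 13 other calls. Only 200 genes were changed there, none of them sparsely counted, and no effect of the bear was simulated. In the data 39.5% of genes were called, so these rates need not hold for them.

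The genes and lists were chosen with earlier results of these data known. Named with values were all members, ATF4, and the called genes of each other list with the largest change, at most 4 per direction, except 1 gene that is counted in its list but not reported here. Depth limits the precision of genes under about 50 reads.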

Additional observations from a re-analysis of the deposited data

Results flagged for a closer look

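PSPH in the summer library of bear 1316 lay at 4.27 log2 CPM, apart from the other summer libraries, of which the next lay at 3.63. Its gap to that library was 0.725 of the range of the 6 summer libraries, above Dixon's 95% critical value for 6 samples. Of the 18 groups of 6 libraries examined (9 genes in 2 seasons) this was the only 1 so marked, where chance marks about 5% of groups. Without bear 1316 the log2 fold change of PSPH was −0.21 (adjusted p = 0.232) and PSPH was again not called.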

How the results depend on the processing

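All 9 genes kept the sign of their log2 fold change under all alternatives. The calls of MTHFD2, and the lack of a call for SHMT1, SHMT2 and MTHFD2L, also held throughout. With the bear as a replicate block PSAT1 was not called in edgeR (−0.76, adjusted p = 0.0603) or in DESeq2 (−0.76, adjusted p = 0.0565). This was the only call of the 9 genes that the block changed. Without a filter PSAT1 stood at −0.78 (adjusted p = 0.0510). With library totals PSPH was called (−0.45), QRICH1 was not (0.26), 0 of the 9 genes were higher, and 5 pathway genes were higher. The stricter limits on adjusted p and fold left 4154 of 6831 genes called, 1 of the 9 genes lower and 0 higher, and 4 pathway genes higher and 15 lower, since this rule is stricter by construction. With a bear left out, the log2 fold change ran from −1.57 to −0.76 for PHGDH, −0.95 to −0.52 for PSAT1, −0.51 to −0.21 for PSPH, −1.30 to −1.04 for MTHFD1L and 0.27 to 0.42 for QRICH1. Between 2 and 4 of the 9 genes were then lower and 0 to 1 higher, and of the pathway genes 18 to 22 were lower and 6 to 10 higher. The cause of these differences was not tested.

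Permuting the season labels over the 12 libraries, without the replicate block, gave an exact p of 0.00216 for the ratio of MTHFD2 to MTHFD2L and 0.232 for that of SHMT2 to SHMT1. The first is the smallest p that this permutation can give. It ignores that the libraries are paired by bear, so it does not replace the sign-flip test. With a bear left out, the exact test cannot go below 0.0625, so it says nothing about stability. Leaving out the winter library of bear 1509 alone, which was chosen after seeing the data, gave 4 lower and 1 higher of the 9 genes, a log2 fold change of −1.31 for MTHFD1L, and 26 lower and 11 higher pathway genes. Low read counts limit the precision of MTHFD2, MTHFD1L and PSAT1, and of CTH, GCAT and SDSL among the pathway genes.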
